A study of Mus musculus with 6 samples.

Results

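The auxiliary subunits of Kv4 potassium channels were examined in RNA-seq libraries of cells sorted from the olfactory bulb (OB) of control and Sox9 KO mice. The 6 genes, *Kcnip1*, *Kcnip2*, *Kcnip3*, *Kcnip4*, *Dpp6* and *Dpp10*, were taken by their symbols from the 24421 genes listed, and all 6 were listed in every library. Sox9 is a transcription factor of glial cells, and the comparison asked how its loss in adult OB astrocytes changed their transcripts. Both groups carried the strain label C57BL/6 and received the same virus, AAV-GFAP-iCre-P2a-TurboRFP, injected into the OB. The 3 control mice had the genotype label WT and the 3 Sox9 KO mice were Sox9fl/fl mice, in which Cre removes *Sox9*. The paper names the controls as C57BL/6J mice, so a difference between mouse lines cannot be told apart from the genotype. The mice were adult males. The sort took TurboRFP-positive cells 4 weeks after the injection, and each library came from 1 mouse. The GFAP promoter drives Cre and the red protein, so a sample holds whichever cells used that promoter and entered the gate, and the controls carried Cre too.

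Kv4 channels carry the A-type potassium current, which opens at potentials below the spike threshold and inactivates fast, and in neurons shapes firing and the spread of signals in dendrites. The pore is built from the products of *Kcnd1*, *Kcnd2* and *Kcnd3*. KChIPs, the products of the *Kcnip* genes, are EF-hand calcium sensors that bind the N-terminus of the pore and set its surface level and inactivation, while DPP6 and DPP10 are single-pass membrane proteins related to dipeptidyl peptidase 4 that lack its enzyme activity and speed the channel's gating. KChIP3 is also known as DREAM and calsenilin, and it also binds DNA as a transcriptional repressor.

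The windows below, in front of transcription starts, are shown because *Kcnip3* changed the most of the 6 genes and *Kcnip4* was the one that did not pass the test. Of the 3 *Kcnip3* windows only the 1 with a match is printed, while the 2 *Kcnip4* windows are both printed, so the windows printed are not an even comparison. They are the 250 bases before starts that RefSeq lists for these genes (build GRCm38.p6, all on the minus strand), written 5′ to 3′. SOX proteins bind short sequences with a core such as ACAATG or ACAAAG, and these letters were searched on both strands. Capitals mark the match, which is ACAAAG on the opposite strand, between 112 and 107 bases before the start.
Kcnip3, chr2:127482500-127482749: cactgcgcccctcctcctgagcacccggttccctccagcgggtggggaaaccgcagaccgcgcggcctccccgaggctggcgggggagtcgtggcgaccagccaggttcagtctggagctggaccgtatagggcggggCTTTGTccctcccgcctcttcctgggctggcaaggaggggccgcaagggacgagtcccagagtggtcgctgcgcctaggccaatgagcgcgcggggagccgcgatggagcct
Kcnip4, chr5:48599683-48599932: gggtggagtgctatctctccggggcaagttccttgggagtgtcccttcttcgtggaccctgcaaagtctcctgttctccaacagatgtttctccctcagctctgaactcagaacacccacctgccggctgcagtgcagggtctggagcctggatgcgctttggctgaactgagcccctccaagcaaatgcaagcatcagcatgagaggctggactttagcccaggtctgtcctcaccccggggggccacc
Kcnip4, chr5:49285660-49285909: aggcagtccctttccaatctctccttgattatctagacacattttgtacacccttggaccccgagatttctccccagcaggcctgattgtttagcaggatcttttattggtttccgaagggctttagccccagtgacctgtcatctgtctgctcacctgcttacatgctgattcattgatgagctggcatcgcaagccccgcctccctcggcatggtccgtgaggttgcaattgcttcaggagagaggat

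Of the 13 windows listed for the 6 genes, the *Kcnip3* window above was the 1 that held either core, and none of the 2 windows listed for the pore genes did. *Kcnip1*, *Kcnip2*, *Dpp6* and *Dpp10*, also lower in Sox9 KO, had no window with a core. Among all 32851 windows of this length in the RefSeq table, 25.2% held either core, 10.7% ACAATG and 16.5% ACAAAG. *Kcnip3* has 3 listed windows and *Kcnip4* has 2, and gene-level values do not say which start was used. The GC content was 71.2% in the *Kcnip3* window printed, 58.0% and 60.0% in the other *Kcnip3* windows, and 59.2% and 51.2% in those of *Kcnip4*. A match is a run of letters and not a binding site.

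The deposited values, called normalized counts here, are reads per gene scaled by a single factor in each library. The libraries held between 18242129 and 86906527 reads on genes, and 1 read was worth between 0.395 and 1.58 normalized counts. *Sox9* itself fell from a mean of 5556 ± 881 (SD, n = 3) to 58.2 ± 5.88 (SD, n = 3), with a log2 fold change of −6.54. A gene was called changed at a limma adjusted p (Benjamini-Hochberg over 18413 genes tested) below 0.05 and a change of at least 1.5-fold. By this rule 5299 genes, 28.8%, were lower in Sox9 KO and 4090 genes, 22.2%, were higher. These splits moved with the scaling, to 6191 lower and 2936 higher when the libraries were scaled to the same total, to 6597 and 2630 when that total left out the ribosomal RNA gene *Rn45s*, and to 4100 and 5380 after quantile normalization. The median log2 fold change of all genes shifted by −0.23, −0.31 and 0.27 in these 3 scalings.

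All 6 auxiliary subunit genes passed the filter of a mean of at least 1 normalized count. Of these, 5 were lower in Sox9 KO and none was higher, beside the 28.8% and 22.2% of all genes tested. Their median log2 fold change was −3.06, beside −0.07 over all genes tested. In 5 genes all Sox9 KO libraries lay below all controls, which held for 34.7% of the genes tested. None had all Sox9 KO libraries above all controls, which held for 32.4%. In bulk samples, fewer cells of a type and less RNA per cell cannot be told apart.

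**Figure D1:**
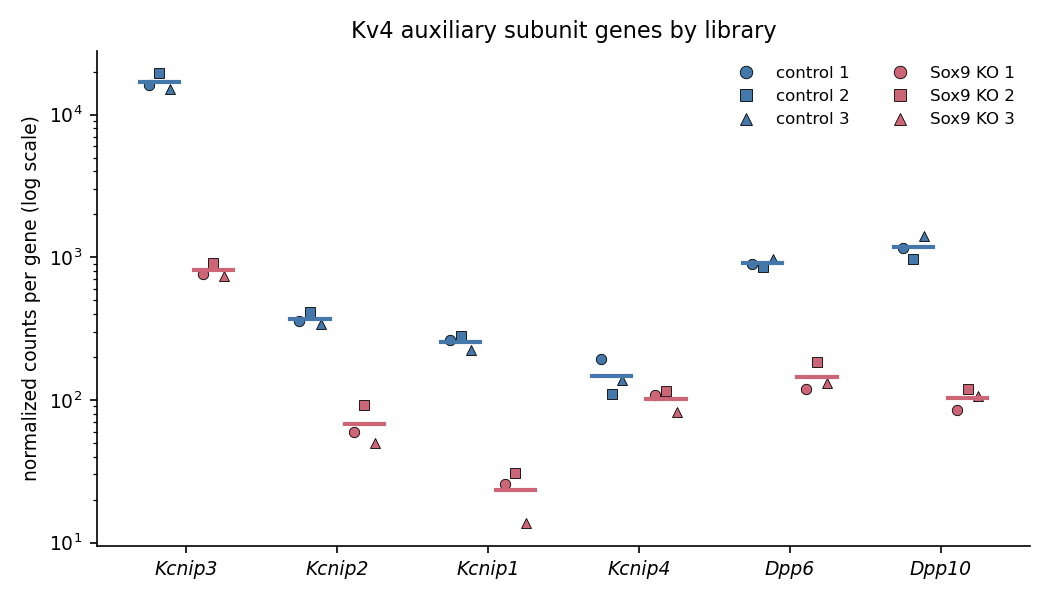
Normalized counts per gene (log axis) of the 6 Kv4 auxiliary subunit genes in the 3 control libraries (blue) and the 3 Sox9 KO libraries (red), with horizontal lines at the group means. *Kcnip3* stands far above the others in both groups, and only *Kcnip4* has overlapping groups, with controls from 109 to 193 and Sox9 KO from 82.0 to 115.

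*Kcnip3* (GRCm38, chr2:127456498-127522094, minus strand, as in GENCODE M21) had the highest level and the largest fall of the 6 genes. Its normalized counts were 16168, 19485 and 15007 in the controls, against 767, 915 and 743 in Sox9 KO. Every Sox9 KO library was far below every control, and within each group the libraries stayed close to each other. The means were 16887 ± 2324 and 808 ± 93.2 (SD, n = 3 each), which is 20.9-fold lower in Sox9 KO, with a log2 fold change of −4.38 (SE 0.12, limma adjusted p = 4.4e-09). Of the genes tested, 1.24% had a lower log2 fold change. The lowest library still held 489 reads of this gene, so counting error is small beside the difference.

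*Kcnip2* (chr19:45791839-45816061, minus strand) encodes KChIP2, best known as the KChIP of heart muscle and also made in the brain. It measured 357, 413 and 339 normalized counts in the controls and 59.6, 92.4 and 50.1 in Sox9 KO. The groups were apart, and the second Sox9 KO library was the highest of its group. It was 5.49-fold lower in Sox9 KO, with a log2 fold change of −2.48 (SE 0.25, limma adjusted p = 1.1e-05). This was the smallest fall among the 5 genes called.

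*Kcnip1* (chr11:33629339-33993152, minus strand) encodes KChIP1, a KChIP found in many inhibitory interneurons. The controls measured 265, 281 and 222 normalized counts, against 25.8, 30.8 and 13.7 in Sox9 KO. These came from 181, 409 and 141 reads in the controls against 26, 78 and 9 reads in Sox9 KO, so the lowest library rests on few reads. No Sox9 KO library came near a control. The gene was 10.9-fold lower in Sox9 KO, with a log2 fold change of −3.46 (SE 0.33, limma adjusted p = 7.2e-06).

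*Kcnip4* (chr5:48389502-49524907, minus strand) encodes KChIP4, a KChIP with a variant whose N-terminus slows inactivation and keeps the channel inside the cell. It measured 193, 109 and 137 normalized counts in the controls and 108, 115 and 82.0 in Sox9 KO. The groups overlapped, since the second control lay below the second Sox9 KO library. The log2 fold change was −0.50 (SE 0.27, 95% interval −1.10 to 0.10, limma adjusted p = 0.134), which did not pass the test, and the interval includes 0 as well as falls beyond the 1.5-fold threshold. Without the first control the log2 fold change was −0.28. Scaling the libraries to the same total gave −0.74 (limma adjusted p = 0.0385), which passed, and quantile normalization gave 0.22, in the other direction. Relative to the median of all genes in the same scaling these were −0.43 in the deposited scaling, −0.44 at the same total and 0.02 after quantile normalization.

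The *Kcnip4* gene is long and spans or meets 31 other annotated genes, of which the files list *5730480H06Rik* on the opposite strand. They share 168 exon bases, and another gene on the opposite strand, the antisense gene *Gm20700*, shares 99 exon bases with *Kcnip4* and is not analysed here. The gene *5730480H06Rik* measured 97.9, 61.9 and 69.4 normalized counts in the controls and 70.5, 80.1 and 44.1 in Sox9 KO, below *Kcnip4* in every library. No source used here states whether strand was used in counting, so reads of the shared bases cannot be told apart, and the level of *Kcnip4* is uncertain to that extent. None of the other 5 genes shares exon bases with another annotated gene.

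*Dpp6* (chr5:26817203-27727505, plus strand) encodes the DPP-like subunit known from neuronal dendrites. Its normalized counts were 891, 857 and 974 in the controls and 119, 184 and 132 in Sox9 KO. The controls were tightly grouped and all Sox9 KO libraries lay well below them. The gene was 6.25-fold lower in Sox9 KO, with a log2 fold change of −2.66 (SE 0.18, limma adjusted p = 5.9e-07).

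*Dpp10* (chr1:123321471-124045559, minus strand), the closest relative of *Dpp6*, measured 1157, 966 and 1398 normalized counts in the controls. The Sox9 KO libraries measured 84.4, 120.0 and 106 normalized counts. The controls spread more than those of *Dpp6*, and the groups stayed far apart. The gene was 11.3-fold lower in Sox9 KO, with a log2 fold change of −3.49 (SE 0.19, limma adjusted p = 1.3e-07).

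In the order of the log2 fold changes, *Kcnip3* was the most negative, followed by *Dpp10*, *Kcnip1*, *Dpp6*, *Kcnip2* and *Kcnip4*. Neighbours in this order were compared by the difference of their log2 values within each library, with an exact two-sided permutation test over the 6 libraries that cannot give a p below 0.1. The log2 fold change of *Kcnip3* differed from that of *Dpp10* by −0.89, that of *Kcnip1* from *Dpp6* by −0.80, and that of *Kcnip2* from *Kcnip4* by −1.98, each with separate groups and an exact p of 0.1. *Dpp10* and *Kcnip1* (difference −0.03, exact p = 1.0) and *Dpp6* and *Kcnip2* (difference −0.18, exact p = 0.3) had overlapping groups, which leaves their order undecided. The plot of log2 fold changes shows the 6 genes with the pore subunits and related genes.

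**Figure D2:**
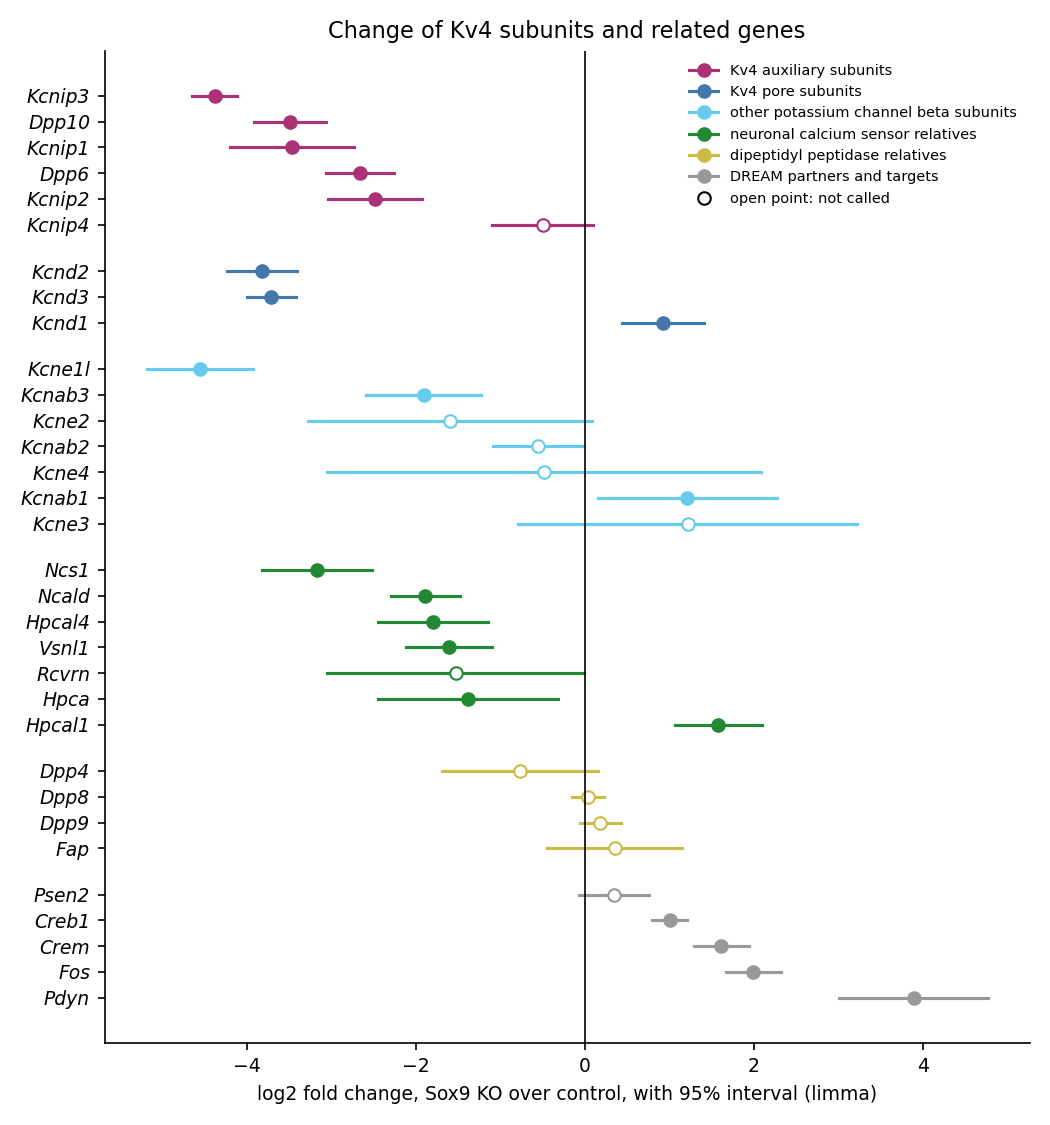
Log2 fold changes of Sox9 KO over control (points) with 95% intervals (lines, limma), for the auxiliary and pore subunits of Kv4, other potassium channel beta subunits, relatives of both subunit kinds, and partners and targets of DREAM. Filled points passed the call rule; 5 auxiliary subunits lie between −4.38 and −2.48, while *Kcnip4* at −0.50, the open point of that group, has an interval that includes 0.

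Levels of different genes were compared per kb of exon length, which joins all annotated exons of a gene. The order of the genes depends on this choice. *Kcnip1* has 6.20 kb of exons and 681 coding bases, while *Kcnip2* has 3.48 kb and 1162 coding bases. Which exons the transcripts held is not known from gene-level values. In the controls *Kcnip3* reached 4762 ± 655 normalized counts per kb, far above *Kcnip2* at 106 ± 11.1 (SD, n = 3). They were followed by *Dpp10* at 74.4 ± 13.7 and *Dpp6* at 73.5 ± 4.88 normalized counts per kb. *Kcnip1* at 41.3 ± 4.92 and *Kcnip4* at 40.4 ± 11.7 normalized counts per kb were the lowest by exon length. The ranges of *Dpp10* and *Dpp6* overlapped, as did those of *Kcnip1* and *Kcnip4*, so neither pair differed beyond its spread. In Sox9 KO *Kcnip3* was still the highest, at 228 ± 26.3 normalized counts per kb. *Kcnip4* stood next at 28.0 ± 4.79, ahead of *Kcnip2* at 19.4 ± 6.38, *Dpp6* at 11.8 ± 2.78, *Dpp10* at 6.56 ± 1.14 and *Kcnip1* at 3.78 ± 1.42 normalized counts per kb. Here the ranges of *Kcnip4* and *Kcnip2* overlapped, as did those of *Kcnip2* and *Dpp6*.

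The make-up of the KChIP transcripts followed from these levels, and the shares depend on the exon lengths too. *Kcnip3* made up 96.2% ± 0.38 of the summed KChIP level per kb in the controls and 81.8% ± 2.11 in Sox9 KO (SD, n = 3). The share of *Kcnip4* was 0.84% ± 0.29 in the controls and 10.0% ± 1.04 in Sox9 KO, with no overlap, while its own level did not pass the test. *Kcnip2* had a share of 2.15% ± 0.06 against 6.82% ± 1.29, and *Kcnip1* of 0.84% ± 0.05 against 1.33% ± 0.38. The summed KChIP level was 4950 ± 664 normalized counts per kb in the controls and 279 ± 37.6 in Sox9 KO. Of the summed level of both DPP-like genes, *Dpp6* held 50.0% ± 3.03 in the controls and 64.0% ± 2.44 in Sox9 KO, and that sum was 148 ± 18.5 against 18.3 ± 3.83 normalized counts per kb.

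The pore subunits did not move together. *Kcnd3*, on the plus strand at chr3:105452330-105674002, measured 3605, 3523 and 3499 normalized counts in the controls and 224, 278 and 316 in Sox9 KO. *Kcnd2*, at chr6:21215503-21729805 on the plus strand, measured 1064, 829 and 985 in the controls and 56.6, 78.6 and 66.8 in Sox9 KO. Both fell with no overlap, with log2 fold changes of −3.71 (SE 0.13, limma adjusted p = 1.3e-08) and −3.82 (SE 0.19, limma adjusted p = 6.3e-08). *Kcnd1*, at chrX:7822289-7838280 on the plus strand, measured 533, 392 and 459 in the controls and 1062, 1046 and 596 in Sox9 KO. It was higher in every Sox9 KO library, with a log2 fold change of 0.93 (SE 0.22, limma adjusted p = 0.0040), and stayed at 0.60 or more over the 17 alternative settings, left-out libraries included. *Kcnd1* thus went from 13.5% ± 1.22 to 79.4% ± 7.46 of the summed pore level per kb, *Kcnd3* from 57.6% ± 3.07 to 14.2% ± 5.76, and *Kcnd2* from 28.9% ± 1.91 to 6.38% ± 1.76 (SD, n = 3).

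The ratio of summed auxiliary to summed pore level, both per kb, was computed in each library. For the KChIPs it was 6.96, 9.44 and 6.85 in the controls and 1.14, 1.33 and 1.57 in Sox9 KO. The Sox9 KO libraries were all lower, by 2.52 on the log2 scale (exact two-sided permutation p = 0.1, the smallest that 3 against 3 allows). For the DPP-like genes the ratio was 0.213, 0.217 and 0.260 in the controls and 0.0637, 0.0929 and 0.110 in Sox9 KO, with a log2 difference of −1.40 (exact permutation p = 0.1). Both differences turn on *Kcnd1*. With *Kcnd1* left out of the pore sum, a setting chosen after the data were seen, the KChIP ratio was 8.17, 10.8 and 7.92 in the controls and 7.78, 7.26 and 5.42 in Sox9 KO, a log2 difference of −0.40. The DPP-like ratio was then 0.250, 0.247 and 0.301 in the controls and 0.436, 0.509 and 0.380 in Sox9 KO, a log2 difference of 0.73, in the opposite direction. The exact permutation p was 0.1 in both.

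**Figure D3:**
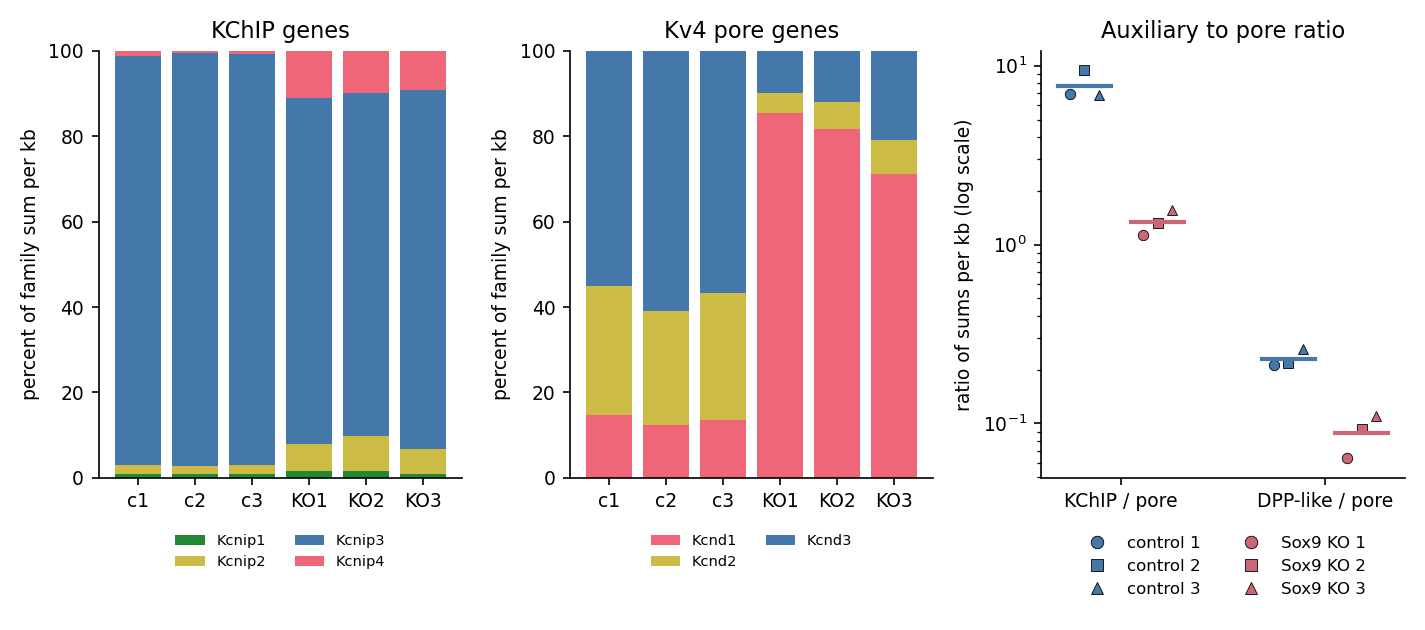
Left and centre, percent of the summed KChIP and Kv4 pore level per kb held by each gene in the control (c) and Sox9 KO libraries; right, ratio of summed KChIP or DPP-like level to summed pore level (log axis), with points for libraries and lines for group means. *Kcnip3* holds most of the KChIP bars in every library, *Kcnd1* grows to 79.4% of the pore bars on average, and both ratios are lower in all Sox9 KO libraries.

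The marker lists of cell types differed widely between the groups, and their part in the changes of the 6 genes was not tested. Their counts stand beside 28.8% lower and 22.2% higher of all genes tested. All 10 astrocyte markers were lower in Sox9 KO, among them *Slc1a3* (a glutamate transporter), *Aqp4* (a water channel), *Slc4a4* (a bicarbonate transporter) and *Aldoc* (a glycolytic enzyme). Their sum ranged from 256324 to 280195 normalized counts in the controls and from 26516 to 28726 in Sox9 KO, 9.81-fold lower. Of 17 neuron markers 14 were lower, none was higher and 3 were not called, and their sum went from between 24316 and 32150 to between 3708 and 6118, 6.02-fold lower. *Snap25* and *Syt1* of the synaptic vesicle machinery, *Meis2* and *Gad2* led that list. Of 13 microglia and macrophage markers 10 were higher and 3 were lower, and their sum went from between 148740 and 179043 to between 513707 and 619233, 3.65-fold higher.

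Of the smaller lists, all 6 oligodendrocyte precursor markers (sum 6820 to 7717 against 578 to 907) and all 7 oligodendrocyte markers (36393 to 62207 against 15491 to 24888) were lower. In 5 of the 6 precursor markers all Sox9 KO libraries lay below all controls. Of 5 mural cell markers 4 were lower (3272 to 3836 against 274 to 515). Olfactory ensheathing cell markers had 2 of 4 lower (2374 to 3279 against 1035 to 2299). Of 6 endothelial markers 3 were lower and 1 was higher, and their sums overlapped (1147 to 1876 against 1292 to 1690). No marker was at 0 in all libraries of a group. Markers of astrocytes and of neurons were thus both present in the sorted cells of both groups, and the files do not tell which cells held the transcripts of the 6 genes.

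Each gene was also set against the summed markers in the same library. Per 1000 normalized counts of neuron markers, *Dpp6* measured 33.8, 35.2 and 30.3 in the controls and 30.2, 30.1 and 35.6 in Sox9 KO. *Kcnip2* likewise overlapped, at 13.5, 17.0 and 10.5 against 15.1, 15.1 and 13.5. These genes thus fell by about as much as the neuron marker sum. *Kcnip3* remained lower on this scale, at 0.290 of the control level, and so did *Kcnip1* at 0.536 and *Dpp10* at 0.549, all without overlap. *Kcnip4* was higher on this scale in every Sox9 KO library, at 7.30, 4.50 and 4.27 against 27.5, 18.8 and 22.1.

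Per 1000 normalized counts of astrocyte markers, *Dpp10* (4.13, 3.49 and 5.45 against 3.18, 4.33 and 3.70) and *Kcnip1* (0.944, 1.02 and 0.867 against 0.973, 1.11 and 0.476) overlapped between the groups. *Kcnip3* was lower, at 57.7, 70.3 and 58.5 in the controls and 28.9, 33.0 and 25.9 in Sox9 KO. It was the one gene that lay below the controls in every Sox9 KO library on both scales. *Dpp6* was 1.56-fold, *Kcnip2* 1.79-fold and *Kcnip4* 6.85-fold higher in Sox9 KO relative to the astrocyte markers, each without overlap. Both sums weigh the markers with the highest counts most, and single markers differed. Log2 fold changes ran from −5.25 to −2.72 over the astrocyte markers and from −4.72 to 0.27 over the neuron markers. *Kcnip3*, at −4.38, lay within both ranges, so it did not fall beyond every marker.

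**Figure D4:**
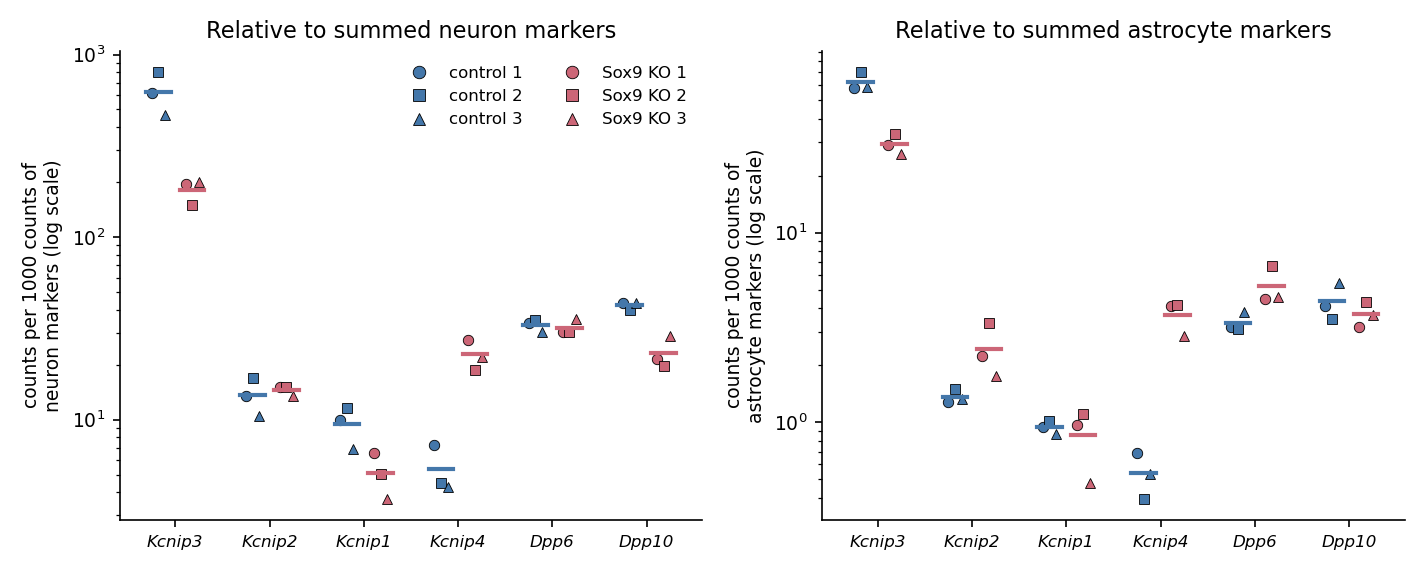
Normalized counts of each auxiliary subunit gene per 1000 normalized counts of summed neuron markers (left) and summed astrocyte markers (right), on log axes, with points for libraries and lines for group means. *Kcnip3* lies lower in Sox9 KO in both panels, *Kcnip4* lies higher in both, *Dpp6* and *Kcnip2* overlap on the left, and *Dpp10* and *Kcnip1* overlap on the right.

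The genes whose pattern over the 6 libraries was most like that of each member were found by the Euclidean distance of centred log2 values, among 11926 genes with a mean of at least 100. For *Kcnip3* they were *Aldoc* (distance 0.251), *Cadm4* (0.261) and *Adora2b* (0.284), with log2 fold changes of −4.25, −4.35 and −4.48. *Aldoc* is also in the astrocyte marker list. For *Dpp6* they were *Tet1* (0.142), *Map2* (0.160) and *Syt1* (0.166), with log2 fold changes of −2.67, −2.65 and −2.75. *Syt1* is also in the neuron marker list. For *Dpp10* they were *Adgrb3* (0.188), *Frmd7* (0.281) and *Cacnb3* (0.302), the last a beta subunit of voltage-gated calcium channels. *Kcnip1* had *Mxra7* (0.318), *Cacna2d2* (0.349) and *Dchs1* (0.383), of which *Cacna2d2* encodes another calcium channel subunit. *Kcnip2* had *2610305D13Rik* (0.247), the amino acid transporter gene *Slc7a5* (0.255) and *Dos* (0.258). *Kcnip4* had *2310067B10Rik* (0.286), *Leng8* (0.323) and *Tango6* (0.327), whose log2 fold changes lay between −0.49 and −0.35. The distance takes in the gap between the groups, so the genes found have log2 fold changes near that of the member by construction. The points also share libraries and depth, so these distances describe likeness only.

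Other potassium channel beta subunits did not follow one direction. Of 8 such genes 7 were tested, 2 were lower, 1 was higher and 4 were not called, with a median log2 fold change of −0.56. These counts stand beside 28.8% lower and 22.2% higher of all genes tested, so the list does not stand out from them. *Kcne1l*, a small single-pass subunit also called *Kcne5*, fell from 547, 483 and 460 to 21.8, 27.2 and 13.7 normalized counts, with a log2 fold change of −4.55 (SE 0.28, limma adjusted p = 3.2e-07). *Kcnab3*, a cytoplasmic beta subunit of Kv1 channels, fell by 1.90 on the log2 scale, while its relative *Kcnab1* rose by 1.21 (limma adjusted p = 0.0471), a call that was lost in 9 of the 17 alternatives. *Kcnab2* had a log2 fold change of −0.56 (limma adjusted p = 0.0658), which did not pass. It was called lower at −0.80 (limma adjusted p = 0.017) with the libraries at the same total, at −0.88 (0.0096) with *Rn45s* left out of that total, with DESeq2 and without the third control, and it turned to 0.18 after quantile normalization. *Kcne1*, *Kcne2*, *Kcne3* and *Kcne4* measured at most 35.1 normalized counts in any library.

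The neuronal calcium sensor family, to which the KChIPs belong, had 7 other members tested, with a median log2 fold change of −1.61. Of these 5 were lower, 1 was higher and 1 was not called, beside 28.8% lower and 22.2% higher of all genes tested. *Ncs1*, which regulates Kv4 channels and transmitter release, measured 1150, 1055 and 933 normalized counts in the controls and 96.3, 200.1 and 79.0 in Sox9 KO, 8.36-fold lower. Its log2 fold change was −3.17 (SE 0.29, limma adjusted p = 5.7e-06). *Ncald* (−1.89), *Hpcal4* (−1.80), *Vsnl1* (−1.61) and *Hpca* (−1.38) fell by less on the log2 scale, and the call of *Hpca* was lost in 9 of the 17 alternatives, edgeR and DESeq2 among them. *Hpcal1* rose from 338, 295 and 170 to 825, 695 and 801 normalized counts, with a log2 fold change of 1.58 (SE 0.23, limma adjusted p = 0.00016). *Rcvrn*, the photoreceptor sensor recoverin, had at most 15.8 normalized counts and a log2 fold change of −1.53 (limma adjusted p = 0.0758), which passed when the total left out *Rn45s* and without the third control.

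The relatives of the DPP-like subunits that keep peptidase activity were not called in either direction in the deposited scaling. *Dpp8*, a cytosolic peptidase, measured 5598, 6457 and 5690 normalized counts in the controls and 5989, 6008 and 6198 in Sox9 KO, with a log2 fold change of 0.04 (SE 0.09, limma adjusted p = 0.718). *Dpp9* (0.19), *Fap* (0.35) and *Dpp4* (−0.77) did not pass the test either. The signs of *Dpp8* and *Dpp9* turned when the libraries were scaled to the same total, and those of *Dpp8* and *Dpp4* after quantile normalization. *Dpp4* was called lower, at −1.08 (limma adjusted p = 0.046), when the total left out *Rn45s*, and *Fap* was called higher, at 1.19 (limma adjusted p = 0.0095), after quantile normalization. The 4 genes had a median log2 fold change of 0.11, beside −3.06 for the auxiliary subunits.

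Known partners and targets of DREAM were listed because of the second role of KChIP3. Of 5 such genes 4 were higher, none was lower and 1 was not called, with a median log2 fold change of 1.62. Over all genes tested 22.2% were higher and 28.8% lower. The list was chosen with earlier results of these data known, so its count is descriptive only. A link of these genes to the fall of *Kcnip3* was not tested. *Pdyn*, which encodes the opioid precursor prodynorphin and is the best known gene repressed by DREAM, measured 23.4, 16.5 and 29.9 normalized counts in the controls and 640, 296 and 225 in Sox9 KO. It was 16.6-fold higher, with a log2 fold change of 3.89 (SE 0.39, limma adjusted p = 1.1e-05), and the first Sox9 KO library stood above the other two. *Fos*, an immediate early gene and another reported DREAM target, was 3.95-fold higher. The CREB family genes *Crem* and *Creb1*, whose proteins bind DREAM, had log2 fold changes of 1.62 and 1.00. *Psen2*, whose protein binds DREAM too, had a log2 fold change of 0.35 (limma adjusted p = 0.128), which passed at 0.89 after quantile normalization. The microglia and macrophage marker sum was 3.65-fold higher in the same libraries, and its part in these changes was not tested.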

How the data were processed

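RNA-seq of TurboRFP-positive OB cells was deposited for 6 mice. The authors mapped reads to mm10 with STAR (2.5.0a per the labels), used GenomicAlignments and GenomicFeatures for gene counts, and applied the normalization of DESeq2 (1.20.0). No source used here gives the annotation or the use of strand in counting. The deposited signal values, named RPM, hold reads scaled by a single factor in each library, and 100% of them were whole multiples of 1 read within 0.01 read. They had been taken for RPM when the tests were chosen, and limma on log2 values was kept as the main test.

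Genes with a mean of at least 1 (18413 genes) were compared on log2(normalized count + 1) by limma 3.58.1 (R 4.3.3), using a variance trend and Benjamini-Hochberg adjustment. Fold changes on this scale understate those of low genes. Calls needed an adjusted p below 0.05 and 1.5-fold. The 17 alternatives were pseudocounts of 0.1 and 5, no filter, a mean of at least 10, 3 scalings, no variance trend, a replicate block, edgeR 4.0.16 and DESeq2 1.42.0 on the recovered reads, and leaving out each library. The fit was tested on simulated data with few changed genes, as many higher as lower. That test does not cover changes as wide as those seen here, or their dependence on the scaling. Levels per kb and coordinates used GENCODE M21 (GRCm38, the build of mm10). Promoter windows came from RefSeq, with the 6 members matched by symbol, as 2 of the 3 pore genes were. Ratios were tested by an exact permutation test. Replicates are separate mice. The limma p-values rest on the spread between mice, moderated by a variance trend over all genes tested. Without the trend the limma adjusted p was 9.1e-05 for *Kcnip3*, against 4.4e-09 with it. For *Kcnip1* it was 5.1e-04, against 7.2e-06 with the trend.

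The genes named are the 6 members, *Sox9*, the genes of the lists, of marker lists at most 4 with the highest mean, and for each member the 3 genes most like it. The members and lists were chosen with earlier results of these data known. A further gene of a list is not reported here and was left out of that list's counts.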

Additional observations from a re-analysis of the deposited data

How the results depend on the processing

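The 5 members called lower kept their direction and call in all 17 alternatives each, with log2 fold changes from −3.78 to −2.77 for *Kcnip1*, −2.80 to −1.87 for *Kcnip2*, −4.71 to −4.27 for *Kcnip3*, −2.99 to −2.32 for *Dpp6* and −3.81 to −3.14 for *Dpp10*. For *Kcnip4*, scaling to the same total gave −0.74 (limma adjusted p = 0.0385), leaving *Rn45s* out of that total gave −0.82 (0.0238), and quantile normalization reversed the sign to 0.22 (0.497). The first 2 moved the median of all genes in the same direction, and quantile normalization in the other. Leaving out 1 library gave −0.69 to −0.28. Of the members, 5 were lower and 0 higher in all settings except both scalings by total, where 6 were lower. The KChIP to pore difference lay between −2.64 and −2.37 with 1 library left out, and that of the DPP-like genes between −1.57 and −1.18. Both were smaller with other lengths. Coding length gave −2.14 for the KChIPs and −1.09 for the DPP-like genes, and no division by length gave −2.13 and −1.06. The DPP-like difference reversed to 0.73 with *Kcnd1* left out of the pore. A p from 3 against 3 cannot fall below 0.1, so these differences cannot pass a threshold of 0.05.

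With the replicate number as a block, *Kcnip4* had a log2 fold change of −0.50 (limma adjusted p = 0.145) and no call of the 6 members changed. Over all genes the block gave 5227 lower and 4048 higher. Deviations of same-numbered libraries correlated at −0.05, −0.01 and −0.01, and those of differently numbered libraries between −0.02 and 0.03. The numbers thus gave no sign of pairing, but n = 3 per group cannot show whether mice shared handling. Depth limits *Kcnip1*, *Kcnip2* and *Kcnip4* most, with 9, 33 and 54 reads in the third Sox9 KO library.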
